A study of Homo sapiens with 32 samples.

Results

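The comparison concerned LNCaP cells kept in medium with full fetal bovine serum (FBS) against LNCaP cells that were given charcoal-stripped serum (CSS). It was made on 8 of the 32 RNA-seq libraries of the series, the 4 labelled FBS and the 4 labelled CSS with no growth factor, chosen by those labels alone. The remaining 24 libraries came from cells in CSS that received EGF or NRG-1 (100 ng/mL), and they entered the fit to share its estimate of spread. LNCaP is an androgen-sensitive prostate cancer cell line that began from a lymph node metastasis, and no gene was altered and no drug was given in either group.

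Both groups were plated in RPMI-1640 with serum. By the protocols, CSS cells were rinsed in PBS on the day after plating, given medium with charcoal/dextran-treated serum, and collected the next day, whereas the protocols do not say whether FBS cells were rinsed and refed. The change of serum and the change of medium therefore cannot be told apart. Each group held replicates 1 and 2 of 2 batches, and values are given below in the order batch 1 replicate 1, batch 1 replicate 2, batch 2 replicate 1, batch 2 replicate 2. The labels call the replicates biological but name no separate culture, so that *P* values measure the spread between these libraries. Levels are read counts scaled to library size (CPM), which do not correct for transcript length.

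Charcoal takes up steroid hormones and other small lipophilic molecules from serum, while most proteins stay behind. Serum drives cells from G1 into S phase through cyclin-dependent kinases, which inactivate the RB family and free the E2F factors to switch on replication genes, and mitotic genes follow later under the MuvB complexes with B-MYB and FOXM1. Growth signals also act through PI3K and AKT, which keep FOXO factors out of the nucleus, and cell sterol is sensed by the SREBP system, which turns on cholesterol synthesis and uptake when sterol is low. The androgen-responsive list itself is not described below, and its members were kept out of the genes named for their size of change. Of the members of the other lists tested, 20 are also on it, and they remain in the counts and medians. Those named below are *CCND1*, *CCND3*, *HMGCS1*, *IDI1*, *INSIG1*, *FADS1*, *SCD*, *ELOVL7*, *ACSL3*, *UAP1*, *SGK1*, *BMPR1B*, *GREB1*, and *B2M*.

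Total expected counts ran from 63822654 to 83754507 in FBS and from 66903121 to 87130351 in CSS. The first principal component held 73.6% of the variance and separated the groups, and the second held 17.8% and followed the batches. The 6 markers of LNCaP epithelial identity were present in every library, with a summed level of 1081 to 1697 TPM (the length-scaled unit of the files) in FBS and 1599 to 1891 TPM in CSS. The basal, fibroblast, leukocyte, and endothelial marker lists summed to between 0.05 and 4.89 TPM in every library, with *KRT5*, *COL1A2*, and *PECAM1* at 0 TPM in all 8. The basal list was the higher in FBS (0.84 to 2.17 TPM, and 0.05 to 0.26 TPM in CSS) and the fibroblast list in CSS (1.91 to 2.9 TPM in FBS and 3.88 to 4.89 TPM in CSS), and the part of these lists in the results was not tested. Transcript length moved with the groups: the median log2 fold change fell from 0.18 in the shortest of 4 equal classes of genes to 0.039, -0.055, and -0.17 in the longest, and FBS batch 2 replicate 2 stood furthest out, with median deviations of 0.13 in the shortest and -0.18 in the longest class.

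Of 16995 genes tested, 4412 were higher and 4547 lower in FBS at an adjusted P value below 0.05, that is 26.0% and 26.8%. The counts of each list below are read against these shares. With a log2 fold change beyond 1 as well, 835 were higher (4.91%) and 645 lower (3.80%), and these are called differentially expressed genes (DEGs). The median log2 fold change of all genes was -0.0082. On the TPM scale this median was -0.17, and of 13141 genes tested 2328 were higher and 5568 lower. Medians on that scale are read against -0.17, and counts against that excess of lower genes. Among 25 gene lists, the cell-cycle lists stood highest and the lists of WNT, Notch, and TGF-beta genes, receptor tyrosine kinases, and insulin, PI3K, and FOXO genes stood lowest.

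**Figure D1:**
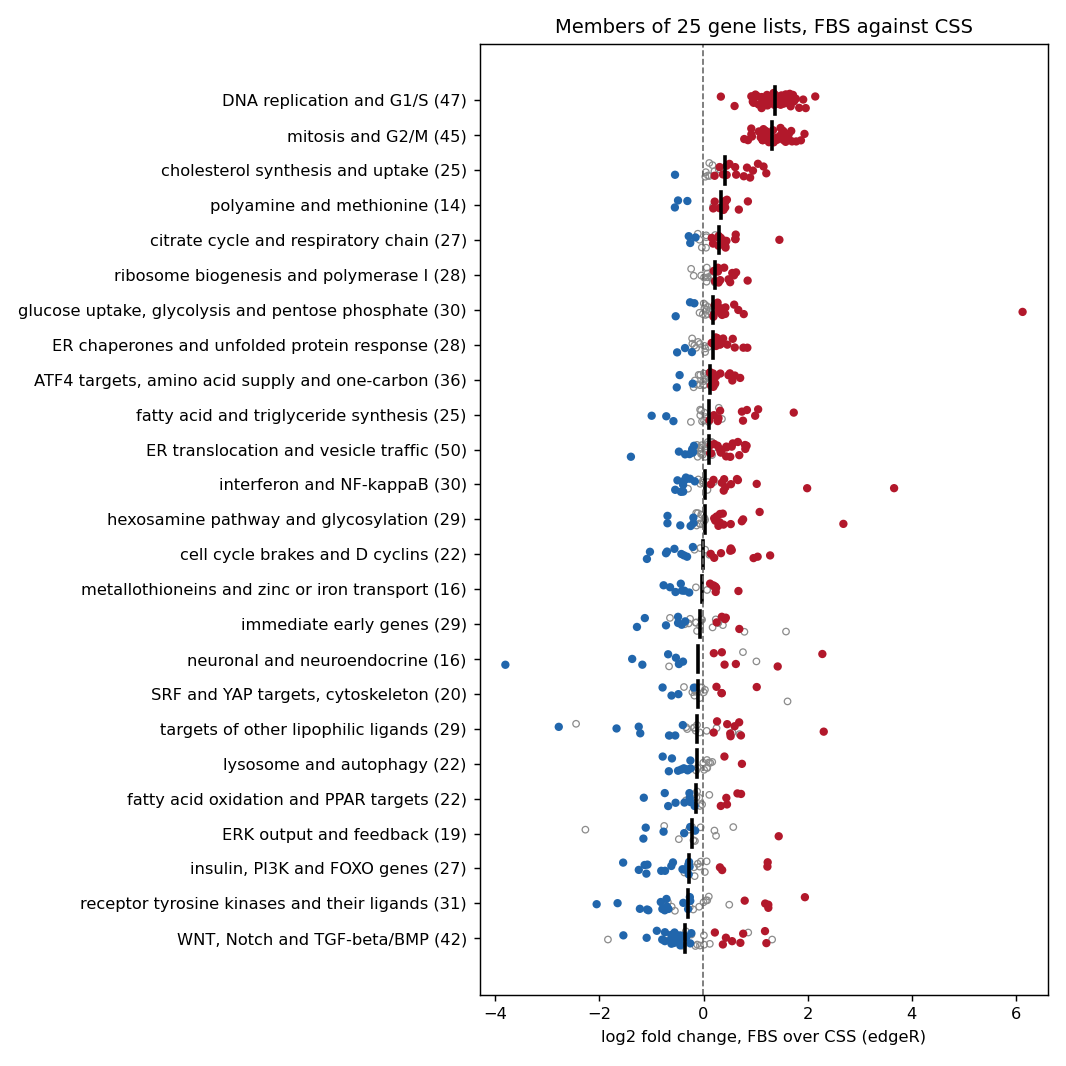
Each point is 1 tested member of a gene list, placed by its log2 fold change (FBS over CSS, edgeR). Filled points passed an adjusted P value below 0.05 (red higher and blue lower in FBS), open points did not, black bars are list medians, the dashed line is the median of all genes, and numbers in parentheses are members tested. All 92 members of the replication and mitosis lists lie to the right of 0, with medians of 1.37 and 1.31.

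The replication and G1/S list was higher in FBS as a whole. All 47 members passed the test upward and 41 were DEGs, with log2 fold changes from 0.33 to 2.15 and a median of 1.37, a 2.59-fold difference. Their summed level was 6247, 6038, 5114, and 5255 CPM in FBS and 2289, 2425, 2065, and 2095 CPM in CSS. For 46 of the 47, every FBS library lay above every CSS library, which was so for 17.7% of all genes. The median was 1.44 in batch 1 alone and 1.31 in batch 2 alone. In these bulk libraries, fewer cycling cells and less RNA of these genes per cell cannot be told apart.

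*CDC6*, which loads the MCM helicase at replication origins, was at 134, 123, 106, and 109 CPM in FBS and 33.4, 36.1, 30.4, and 32.0 CPM in CSS (log2 fold change 1.84, SE 0.060, adjusted P = 9.15e-20, from the quasi-likelihood test of edgeR with Benjamini-Hochberg adjustment). *TYMS*, the thymidylate synthase that supplies dTMP, was at 271, 284, 224, and 239 CPM in FBS and 83.8, 94.7, 80.8, and 80.2 CPM in CSS (log2 fold change 1.58, SE 0.055, adjusted P = 3.05e-19). *POLA2*, a subunit of the polymerase alpha and primase complex, was at 86.0, 82.9, 63.5, and 60.5 CPM in FBS and 32.0, 33.4, 25.5, and 25.8 CPM in CSS (log2 fold change 1.32, SE 0.041, adjusted P = 6.19e-20). In these 3 genes every FBS library lay above every CSS library, and batch 1 was the higher batch in both groups.

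The members differed by role. The 6 helicase genes *MCM2* to *MCM7* lay within a narrow range, from 1.12 to 1.37, with *MCM2* at 246, 197, 165, and 139 CPM in FBS and 88.9, 100.9, 77.5, and 69.3 CPM in CSS (log2 fold change 1.14, SE 0.087, adjusted P = 7.23e-12). The 4 genes of the GINS complex, which joins the helicase when it is activated, ran from 1.28 to 2.15, and *CDC45*, their partner, was at 1.92. *GINS2* was at 71.3, 83.9, 73.8, and 105 CPM in FBS and 19.8, 19.4, 16.3, and 19.9 CPM in CSS (log2 fold change 2.15, SE 0.13, adjusted P = 2.2e-14), with no overlap between the groups. The 4 subunits of replication factor C, which loads the sliding clamp, ran from 1.36 to 1.63, and the clamp itself, *PCNA*, was at 401, 449, 389, and 517 CPM in FBS and 145, 136, 124, and 151 CPM in CSS (log2 fold change 1.66, SE 0.13, adjusted P = 2.05e-11).

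Nucleotide supply genes ran from 1.00 (*DUT*) to 1.68 (*RRM2*, the regulated subunit of ribonucleotide reductase). The E2F factors on the list, activators and repressors alike, ran from 1.44 to 1.74. *E2F1* itself was at 128, 107, 73.7, and 71.6 CPM in FBS and 34.9, 36.7, 26.3, and 24.0 CPM in CSS (log2 fold change 1.62, SE 0.077, adjusted P = 2.26e-16). The 2 E-type cyclins were unequal: *CCNE2* stood at 1.54 (adjusted P = 6.52e-10) and *CCNE1* at 0.60 (adjusted P = 4.49e-09). The smallest difference was in *POLE*, the catalytic subunit of polymerase epsilon, at 62.1, 54.7, 54.6, and 46.9 CPM in FBS and 42.5, 48.0, 44.7, and 37.9 CPM in CSS (log2 fold change 0.33, SE 0.13, adjusted P = 0.0339). Its groups overlapped, and the call was lost on leaving out FBS batch 1 replicate 1 (adjusted P = 0.0794), CSS batch 1 replicate 1 (0.0937), FBS batch 2 replicate 1 (0.0873), or CSS batch 2 replicate 2 (0.082).

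The mitosis and G2/M list was higher as a whole too. All 45 members passed the test upward and 40 were DEGs, with log2 fold changes from 0.78 to 1.94 and a median of 1.31, a 2.48-fold difference. Their summed level was 5488, 5937, 6423, and 6870 CPM in FBS and 2281, 2694, 2330, and 2474 CPM in CSS, and the groups overlapped for none of the 45. The median was 1.18 in batch 1 alone and 1.48 in batch 2 alone. A correction for transcript length left 47 of 47 replication and 45 of 45 mitosis genes higher (medians 1.37 and 1.39), as did leaving out FBS batch 2 replicate 2.

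*CDK1*, the kinase that starts mitosis, was at 397, 489.8, 469, and 584 CPM in FBS and 167, 164, 142, and 178 CPM in CSS (log2 fold change 1.57, SE 0.16, adjusted P = 1.57e-09). *CCNB1*, its cyclin, was at 182, 233, 339, and 421 CPM in FBS and 102, 105, 123, and 147 CPM in CSS (log2 fold change 1.25, SE 0.14, adjusted P = 2.41e-08), and its FBS libraries spread widely with batch 2 the higher. *MKI67*, the proliferation antigen Ki-67, was at 233, 213, 215, and 178 CPM in FBS and 88.6, 146, 84.5, and 70.6 CPM in CSS (log2 fold change 1.14, SE 0.20, adjusted P = 2.61e-05). The groups did not overlap for any of these genes, although CSS batch 1 replicate 2 stood nearest to FBS for *MKI67*.

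By role, the 10 kinetochore and checkpoint genes spread most, from 0.92 to 1.94. The top of that range was *MAD2L1*, the spindle checkpoint protein MAD2, at 116.1, 148, 180.3, and 241 CPM in FBS and 42.9, 39.1, 40.9, and 52.3 CPM in CSS (log2 fold change 1.94, SE 0.16, adjusted P = 6.29e-11). The 6 kinesins lay between 1.13 and 1.36, among them *KIF11*, the motor that separates spindle poles, at 94.5, 90.4, 78.9, and 76.4 CPM in FBS and 36.8, 45.6, 33.9, and 32.3 CPM in CSS (log2 fold change 1.20, SE 0.058, adjusted P = 4.08e-16). The 4 genes that promote anaphase (*CDC20*, *UBE2C*, *PTTG1*, and *ESPL1*) lay between 1.14 and 1.41. The 3 with the lowest adjusted P values on the list were *ANLN*, the contractile ring protein anillin (1.48, adjusted P = 1.94e-17), *UBE2C*, the ubiquitin-conjugating enzyme of the anaphase-promoting complex (1.41, 1.77e-16), and *KIF11*. *MYBL2* and *FOXM1*, the transcription factors of the late cell cycle, were at 1.35 and 0.92, the second below the fold limit together with *CDC25B*, *CENPE*, *CENPF*, and *CKAP2*.

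**Figure D2:**
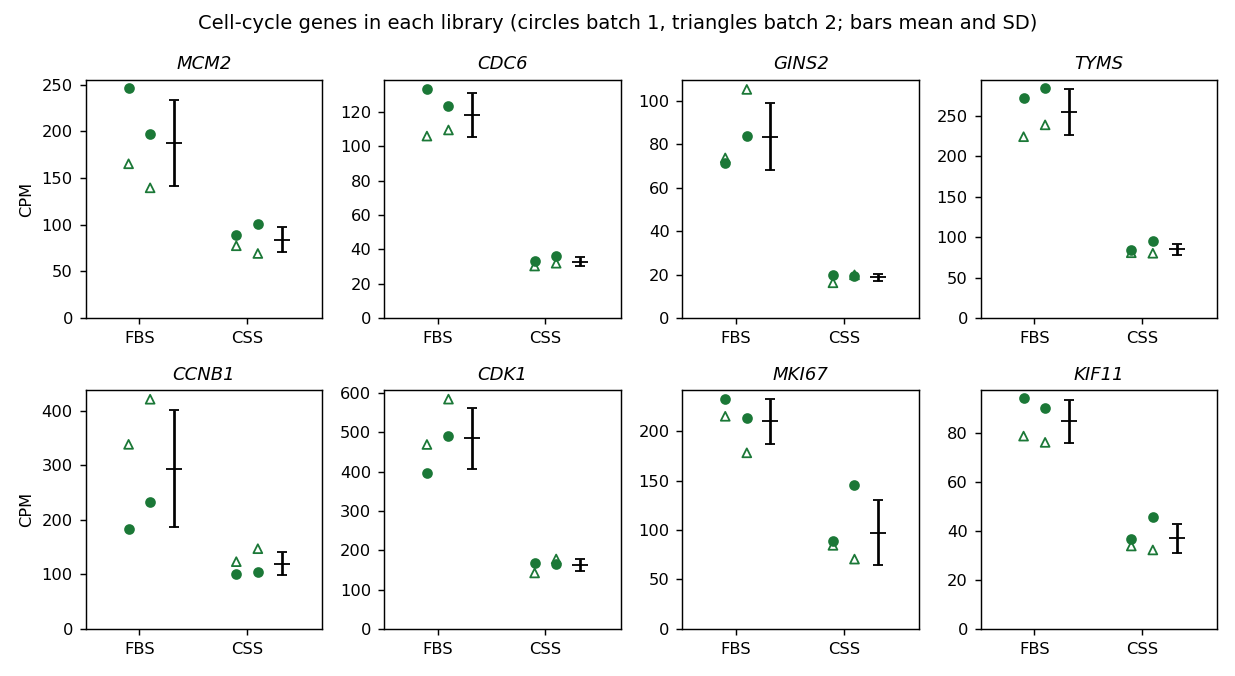
CPM (y axes, each from 0) of 8 cell-cycle genes in the FBS and CSS libraries, with batch 1 as filled circles, batch 2 as open triangles, replicate 1 left of replicate 2, and the mean and SD of 4 libraries as bars. In all 8 panels the lowest FBS library lies above the highest CSS library, for *CDC6* at 106 against 36.1 CPM.

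The promoters of these 2 lists were read for the letters that cell-cycle factors bind. The lists were drawn up by function, and every member was higher in FBS. The shares below therefore describe the lists, and whether the motifs bear on the difference between the serums was not tested. Sequences came from RefSeq (GRCh38.p14, not the hg19 build of the files), as the 250 bases before each gene start, for 40 of the 47 replication genes and 38 of the 45 mitosis genes. The cell-cycle genes homology region (CHR), TTTGAA, was found on either strand in 20 of 38 mitosis promoters (52.6%), in 1 of 40 replication promoters, and in 8.82% of the 11911 promoters of tested genes. The E2F-type octamers TTTCCCGC, TTTCGCGC, TTTGCCGC, and TTTGGCGC were found in 16 of 40 replication promoters (40.0%), in 2 of 38 mitosis promoters (5.26%), and in 4.09% of promoters of tested genes. CCAAT was found in 73.7%, 55.0%, and 34.7% of the mitosis, replication, and tested-gene promoters. It was also in 78.9% of 19 cholesterol promoters, 38.5% of 26 glucose promoters, and 29.2% of 24 ribosome biogenesis promoters, so it was not particular to the cell cycle. CHR and CCAAT stood together in 18 of 38 mitosis promoters and in 414 of the 11911. Each motif was counted by itself, whether or not it overlapped another, and a match is a run of letters, not a measured binding site.

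The next 6 stretches are mitosis promoters with CHR and CCAAT both within the 100 bases before the gene start. They were picked because their letters stand at like places. CHR lay within those 100 bases in 14 of the 20 mitosis promoters that hold it, and further off in others, such as *CDK1* (-161). On the other strand CHR reads TTCAAA and CCAAT reads ATTGG. Capitals mark these motifs, and each stretch is written 5′ to 3′ on the gene's strand and ends at the base before the start.
CCNB2: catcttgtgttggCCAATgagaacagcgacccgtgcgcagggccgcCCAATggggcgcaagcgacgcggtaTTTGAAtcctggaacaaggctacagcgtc
PLK1: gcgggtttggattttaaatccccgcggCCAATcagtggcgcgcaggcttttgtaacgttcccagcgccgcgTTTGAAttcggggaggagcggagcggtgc
KIF11: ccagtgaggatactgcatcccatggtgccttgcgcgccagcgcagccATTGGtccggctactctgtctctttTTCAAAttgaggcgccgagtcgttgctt
PRC1: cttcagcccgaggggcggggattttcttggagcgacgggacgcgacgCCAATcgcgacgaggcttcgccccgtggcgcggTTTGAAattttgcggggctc
KIF4A: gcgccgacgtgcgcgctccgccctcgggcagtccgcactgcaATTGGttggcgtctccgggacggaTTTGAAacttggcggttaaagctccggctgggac
ESPL1: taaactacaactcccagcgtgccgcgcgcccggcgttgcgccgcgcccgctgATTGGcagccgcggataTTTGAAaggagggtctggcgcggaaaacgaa
They lie at chr15:59105046-59105145 (plus strand, *CCNB2*), chr16:23678789-23678888 (plus strand, *PLK1*), chr10:92593030-92593129 (plus strand, *KIF11*), chr15:90994536-90994635 (minus strand, *PRC1*), chrX:70290004-70290103 (plus strand, *KIF4A*), and chr12:53268199-53268298 (plus strand, *ESPL1*). In these genes the log2 fold changes were 1.55 (*CCNB2*), 1.06 (*PLK1*), 1.20 (*KIF11*), 1.10 (*PRC1*), 1.13 (*KIF4A*), and 1.21 (*ESPL1*).

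The next 6 stretches are replication promoters with an E2F-type octamer within the same distance, written the same way, with the octamer in capitals. They are picked examples from the 13 replication promoters with an octamer within those 100 bases. Of all 40 replication promoters read, 16 held an octamer within 250 bases.
GINS2: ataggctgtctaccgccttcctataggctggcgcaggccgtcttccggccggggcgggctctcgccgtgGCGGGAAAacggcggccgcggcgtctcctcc
PCNA: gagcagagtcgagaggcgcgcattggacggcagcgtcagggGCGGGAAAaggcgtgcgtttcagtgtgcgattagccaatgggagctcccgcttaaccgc
E2F1: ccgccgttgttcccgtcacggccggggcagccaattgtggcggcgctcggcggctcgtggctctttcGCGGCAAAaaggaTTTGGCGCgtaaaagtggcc
CDC25A: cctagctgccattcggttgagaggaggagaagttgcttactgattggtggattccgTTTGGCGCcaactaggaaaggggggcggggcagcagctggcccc
RFC3: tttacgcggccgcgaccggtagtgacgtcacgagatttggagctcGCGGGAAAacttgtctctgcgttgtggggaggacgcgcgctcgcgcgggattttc
POLA2: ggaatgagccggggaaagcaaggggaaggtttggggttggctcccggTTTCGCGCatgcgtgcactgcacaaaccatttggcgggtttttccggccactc
They lie at chr16:85688955-85689054 (minus strand, *GINS2*), chr20:5126623-5126722 (minus strand, *PCNA*), chr20:33686386-33686485 (minus strand, *E2F1*), chr3:48188418-48188517 (minus strand, *CDC25A*), chr13:33818049-33818148 (plus strand, *RFC3*), and chr11:65261862-65261961 (plus strand, *POLA2*). The log2 fold changes were 2.15 (*GINS2*), 1.66 (*PCNA*), 1.62 (*E2F1*), 1.24 (*CDC25A*), 1.63 (*RFC3*), and 1.32 (*POLA2*).

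**Figure D3:**
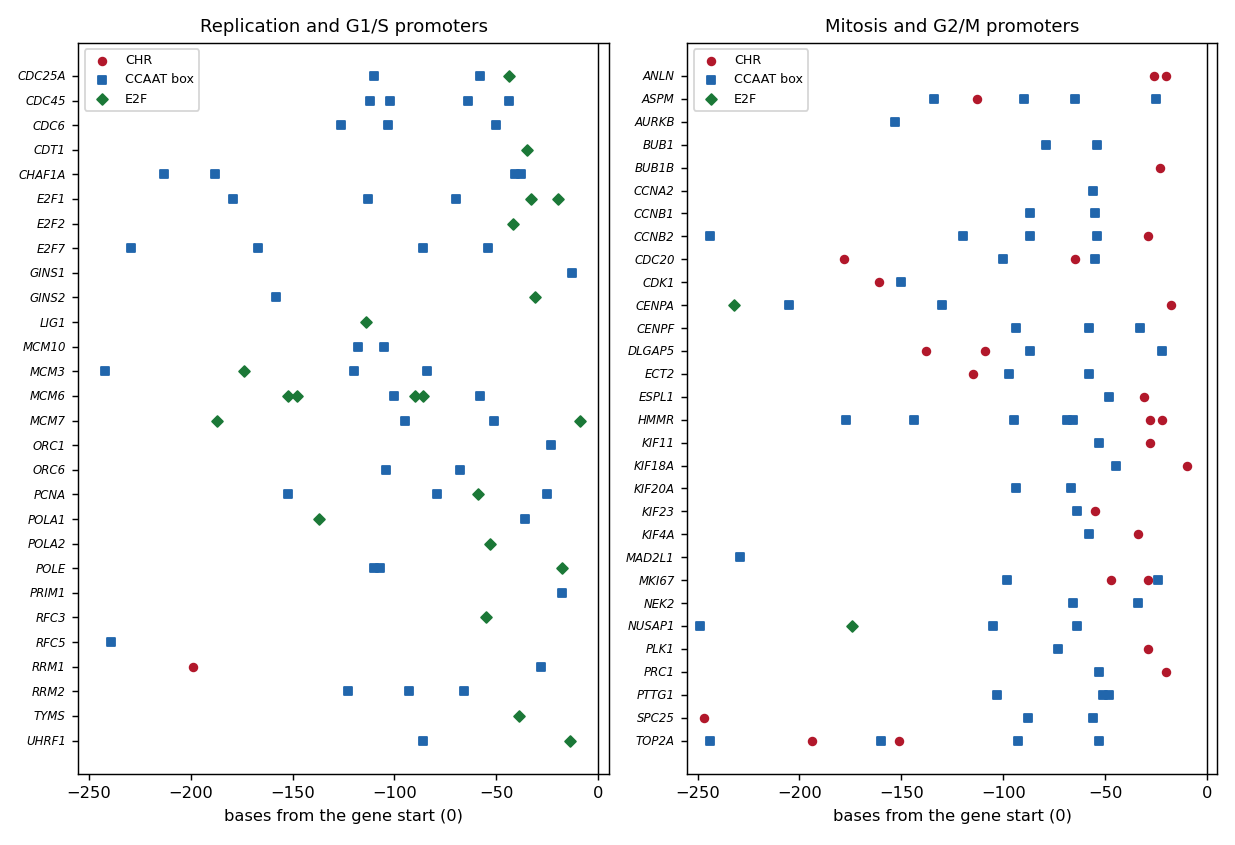
Places of 3 motifs in the 250 bases before the gene start (x axes, bases from the start at 0) of replication (left) and mitosis (right) promoters that hold at least 1 match, with CHR as red circles, CCAAT as blue squares, and E2F-type octamers as green diamonds. CHR marks 20 mitosis promoters and 1 replication promoter, and the octamers mark 16 replication and 2 mitosis promoters.

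The brakes of the cycle and the D cyclins did not move as 1 group. Of 22 tested, 9 were higher and 9 lower (median -0.016), against 5 and 11 on the TPM scale. The INK4 inhibitors *CDKN2C* (p18) and *CDKN2D* (p19) were higher in FBS, and *CDKN2C* was at 66.7, 62.4, 52.3, and 55.5 CPM in FBS and 26.0, 29.6, 21.5, and 21.0 CPM in CSS (log2 fold change 1.28, SE 0.053, adjusted P = 1.19e-17). *CDKN2B* (p15) was lower (-1.09, adjusted P = 2.45e-05). The RB relatives split as well: *RBL1* (p107), itself a gene of the proliferating cell, was higher (0.96), and *RBL2* (p130), the form that prevails in resting cells, was at 143, 136, 137, and 124 CPM in FBS and 201, 193, 198, and 204 CPM in CSS (log2 fold change -0.56, SE 0.053, adjusted P = 7.32e-10), with no overlap.

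*CCNG2*, a cyclin of cells that have left the cycle and a FOXO target, was at 68.4, 76.9, 79.2, and 70.7 CPM in FBS and 140, 146, 156, and 162 CPM in CSS (log2 fold change -1.03, SE 0.072, adjusted P = 1.24e-12), and the antiproliferative gene *BTG2* was lower as well (-0.72). *CDKN1B*, the inhibitor p27, differed less, at 103, 104, 99.3, and 96.3 CPM in FBS and 117, 122, 110.3, and 113 CPM in CSS (log2 fold change -0.20, SE 0.048, adjusted P = 0.000812). *CCND1*, the cyclin that mitogens raise in early G1, was at 319, 256, 265, and 240.1 CPM in FBS and 290.4, 309, 325, and 293 CPM in CSS and did not pass the test (log2 fold change -0.17, adjusted P = 0.157). Without FBS batch 1 replicate 1 its adjusted P was 0.0404. *CCND3* was higher (0.53, adjusted P = 7.92e-09). *CDKN1A* (p21) was lower once the batch was a term (-0.38, adjusted P = 0.000451), but its batches lay apart, at 60.4 to 74.9 CPM in batch 1 and 96.2 to 148 CPM in batch 2, and without the batch term its adjusted P was 0.297.

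Cholesterol synthesis and uptake came next in size. Of 25 genes tested, 16 were higher in FBS and 1 lower, with a median of 0.42 (0.55 in batch 1 and 0.32 in batch 2 alone, and 0.21 on the TPM scale). The summed level was 4595, 4243, 3853, and 3790 CPM in FBS and 2796, 2741, 2697, and 2713 CPM in CSS, with no overlap. Of the 26 listed, 5 are also on the androgen-responsive list, so that this list is not separate from the androgen list.

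The largest differences in the pathway were in *EBP* and *ACAT2*. *ACAT2*, which makes acetoacetyl-CoA at its entry, was at 109, 118, 114, and 135 CPM in FBS and 51.9, 49.1, 52.8, and 59.8 CPM in CSS (log2 fold change 1.15, SE 0.095, adjusted P = 3.41e-11). *EBP*, a sterol isomerase of the late steps, was at 96.1, 99.3, 83.7, and 104 CPM in FBS and 40.9, 40.6, 41.4, and 43.2 CPM in CSS (log2 fold change 1.21, SE 0.088, adjusted P = 2.38e-12). The groups overlapped for neither gene.

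Between *ACAT2* and *EBP*, the isoprenoid steps *IDI1*, *FDPS*, and *FDFT1* were at 0.90, 0.77, and 0.84. The SREBP targets *SQLE* and *HMGCS1* were at 0.44 and 0.42, and *LSS*, the cyclase that forms the sterol rings, was at 0.03 (adjusted P = 0.841). *INSIG1*, which holds SREBP in the endoplasmic reticulum and is itself an SREBP target, was at 175, 162, 156, and 154 CPM in FBS and 75.9, 76.0, 94.5, and 91.3 CPM in CSS (log2 fold change 0.95, SE 0.076, adjusted P = 1.85e-11). *SREBF2*, the gene of SREBP-2, did not pass (0.11, adjusted P = 0.416). The 1 gene lower in FBS was *TM7SF2*, a sterol reductase, at 152, 134, 122, and 124 CPM in FBS and 203, 182, 201, and 191 CPM in CSS (log2 fold change -0.55, SE 0.060, adjusted P = 1.06e-08).

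**Figure D4:**
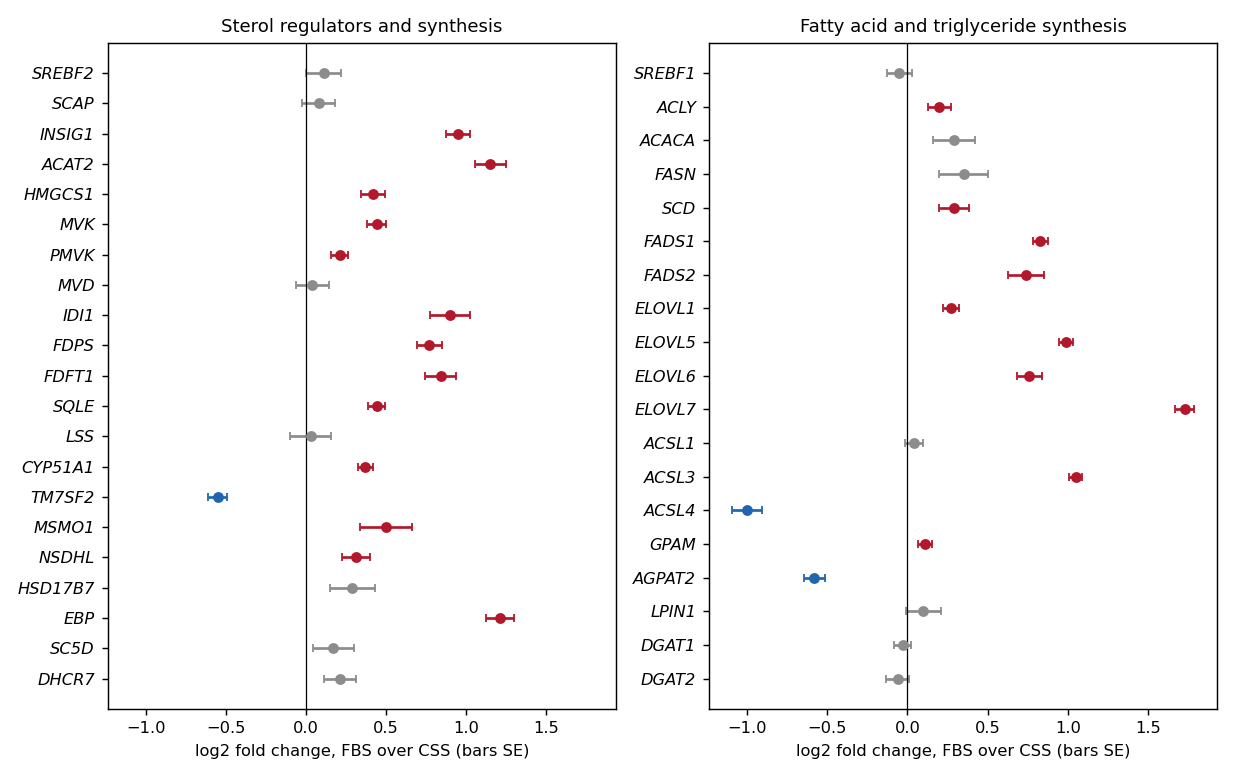
Log2 fold changes (FBS over CSS, edgeR) with SE bars for sterol genes in the order of regulators and synthesis (left) and for fatty acid and triglyceride genes (right), in red or blue where the adjusted P value was below 0.05 and grey where it was not. *EBP* and *ACAT2* lie beyond 1, as do *ELOVL7* and *ACSL3* on the right, while *LSS*, *FASN*, and *SREBF1* are grey.

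The sterol exporters moved the other way. *ABCA1*, the cholesterol exporter controlled by the liver X receptors, was at 0.751, 0.780, 0.686, and 0.353 CPM in FBS and 4.22, 5.27, 4.39, and 4.11 CPM in CSS (log2 fold change -2.78, SE 0.18, adjusted P = 1.22e-13), and *ABCG1*, its partner in export, was at 7.11, 6.56, 6.87, and 5.43 CPM in FBS and 16.2, 15.6, 15.1, and 13.5 CPM in CSS (log2 fold change -1.22, SE 0.076, adjusted P = 8.7e-14). Neither overlapped. Other genes of these receptors did not move as 1 group: *LPCAT3*, which remodels phospholipids, was lower (-0.54), *SMPDL3A* and *NR1H3*, the gene of LXR-alpha, were higher (0.46 and 0.20, both with overlap), and *MYLIP* did not pass (-0.13, adjusted P = 0.0966). The *NR1H3* call was lost on the TPM scale (-0.0) and without CSS batch 2 replicate 1 (adjusted P = 0.0912) or FBS batch 2 replicate 2 (0.0818), and *MYLIP* had an adjusted P of 0.0413 without FBS batch 2 replicate 1. *NPC1*, which moves cholesterol out of lysosomes, was at 0.74 (adjusted P = 2.13e-08).

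In fatty acid and triglyceride synthesis, the larger differences lay in elongation and activation. Of 25 tested, 11 were higher and 3 lower, with a median of 0.11 (-0.014 on the TPM scale). The androgen-responsive list also holds 4 of the members, *ELOVL7*, *ACSL3*, *FADS1*, and *SCD*. The higher count was 7 on the TPM scale and 5 in batch 2 alone. *ELOVL7*, an elongase of long saturated chains, was at 39.1, 38.2, 51.0, and 51.7 CPM in FBS and 11.5, 10.4, 15.2, and 17.3 CPM in CSS (log2 fold change 1.73, SE 0.060, adjusted P = 2.78e-19). *ELOVL5*, an elongase of polyunsaturated chains, was at 957, 875, 767, and 728 CPM in FBS and 469, 463, 366, and 376 CPM in CSS (log2 fold change 0.99, SE 0.044, adjusted P = 5.07e-17). *ACSL3*, which activates fatty acids at lipid droplets, was at 344, 321, 343, and 311 CPM in FBS and 158, 165, 156, and 158 CPM in CSS (log2 fold change 1.05, SE 0.042, adjusted P = 6.35e-18). All 3 genes lacked overlap. The desaturases *FADS1* and *FADS2*, which act on polyunsaturated chains beside *ELOVL5*, were at 0.83 and 0.74.

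*ACSL4*, which activates arachidonate, was lower in FBS, at 4.48, 4.18, 4.21, and 3.76 CPM in FBS and 8.61, 8.22, 8.04, and 8.32 CPM in CSS (log2 fold change -1.0, SE 0.094, adjusted P = 6.12e-10), and so were *AGPAT2* (-0.58) and *INSIG2* (-0.72). *FASN*, the fatty acid synthase, was at 1549, 1184, 1173, and 925 CPM in FBS and 957, 1099, 928, and 783 CPM in CSS (log2 fold change 0.35, SE 0.15, adjusted P = 0.0563) and did not pass, although its adjusted P was 0.0277 without FBS batch 2 replicate 2. *SCD*, which makes monounsaturated chains, was at 1148, 950.5, 962, and 760.0 CPM in FBS and 744, 758, 853, and 778 CPM in CSS (log2 fold change 0.29, SE 0.092, adjusted P = 0.00991), with overlap, and lost its call without FBS batch 1 replicate 1 (adjusted P = 0.0835). *SREBF1* was at -0.05 (adjusted P = 0.66).

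Of 22 genes of fatty acid oxidation and PPAR targets, 9 were lower (40.9%) and 5 higher (22.7%), with a median of -0.15. Of all genes, 26.8% were lower and 26.0% higher. *CRAT*, carnitine acetyltransferase, was at 58.2, 53.2, 46.5, and 40.7 CPM in FBS and 85.2, 92.1, 79.5, and 75.1 CPM in CSS (log2 fold change -0.74, SE 0.074, adjusted P = 1.69e-09), with no overlap. *PPARG* was at -0.54, and the isomerases *ECI1* and *ECI2* and the dehydrogenase *HADH* were higher, at 0.65, 0.45, and 0.44. *CPT1A*, the gate of mitochondrial import, was at -0.03 (adjusted P = 0.713).

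Of 30 genes of glucose metabolism tested, 15 were higher and 3 lower, with a median of 0.18 (-0.0092 on the TPM scale, 0.16 above the median of all genes there). The counts were even on the TPM scale, 4 higher and 4 lower, and were 3 and 2 in batch 2 alone, with 2 libraries a group. *LDHA*, which turns pyruvate into lactate, was at 957, 959, 939.7, and 931 CPM in FBS and 522, 533, 553, and 614 CPM in CSS (log2 fold change 0.77, SE 0.076, adjusted P = 1.38e-09). *PDK1*, which keeps pyruvate out of the citrate cycle, was at 0.67 (adjusted P = 6.15e-06). *HK2*, the inducible hexokinase, was at 67.3, 53.8, 55.9, and 43.3 CPM in FBS and 37.1, 41.1, 36.1, and 32.0 CPM in CSS (log2 fold change 0.59, SE 0.11, adjusted P = 4e-05). None of these overlapped, and the glycolytic enzyme *ENO1* was higher by less (0.33).

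The muscle-type phosphofructokinase *PFKM* was lower (-0.53, adjusted P = 1.02e-07). *SLC2A12* was at -0.18 with overlap, and its call was lost in 6 of the 8 leave-one-out fits, with an adjusted P of 0.169 without FBS batch 2 replicate 2. Of the glucose carriers, *SLC2A1* was at 0.34, and *SLC2A3* had 40, 21, 17, and 20 counts in FBS and 0, 1, 0, and 0 counts in CSS, too few for a fold. *TXNIP*, which removes glucose carriers from the surface and rises with glucose, was lower in FBS, at 347, 377, 257, and 257 CPM in FBS and 511, 547, 388, and 408 CPM in CSS (log2 fold change -0.59, SE 0.072, adjusted P = 7.45e-08).

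The counts of the mitochondrial list depended on the setting. Of 27 citrate cycle and respiratory chain genes, 15 were higher and 3 lower (median 0.29), against 9 and 4 with the length correction (median 0.091) 9 and 1 without FBS batch 2 replicate 2, 9 and 7 on the TPM scale, and 2 and 1 in batch 2 alone. Without FBS batch 1 replicate 1 the lower count was 5, and without CSS batch 2 replicate 1 it was 1. *MPC2*, a subunit of the mitochondrial pyruvate carrier, stood out at 557, 663, 823, and 1024 CPM in FBS and 243, 224, 288, and 351 CPM in CSS (log2 fold change 1.46, SE 0.14, adjusted P = 4.15e-10), and its value was 1.46 with the length correction. *TFAM*, the mitochondrial DNA factor, and *IDH2* were at 0.61 and 0.40, and *CYCS*, cytochrome c, was at 0.62. *OGDH* was at -0.26 and *SDHA* at -0.15, and both calls were lost without FBS batch 2 replicate 2 (adjusted P = 0.101 and 0.132) or CSS batch 2 replicate 1 (0.0562 and 0.0888). The *SDHA* call was lost as well without FBS batch 1 replicate 2 (0.0568), CSS batch 1 replicate 2 (0.0823), or FBS batch 2 replicate 1 (0.0973).

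Amino acid supply and polyamine genes differed modestly. Of 36 ATF4 targets and one-carbon genes, 16 were higher and 3 lower, with a median of 0.13 (-0.069 on the TPM scale). On the TPM scale the counts were 5 higher and 10 lower, while the list median lay 0.098 above that of all genes there. The counts were 18 and 5 with the length correction, 2 and 2 in batch 2 alone, and 9 higher without the batch term. *MTHFD2*, the mitochondrial folate enzyme, was at 235, 274, 299, and 329 CPM in FBS and 149.7, 153, 195, and 204 CPM in CSS (log2 fold change 0.70, SE 0.074, adjusted P = 4.72e-09), and *ASNS*, asparagine synthetase, was at 325, 387, 500, and 618 CPM in FBS and 254, 239, 354, and 395 CPM in CSS (log2 fold change 0.55, SE 0.11, adjusted P = 0.000139). *MTHFD2* did not overlap and *ASNS* did. The carriers *SLC1A5* (glutamine) and *SLC1A4* were higher (0.51 and 0.48), whereas *SLC7A5*, the carrier of large neutral amino acids, *SESN2*, and *AARS* were lower (-0.51, -0.46, and -0.21).

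Of 14 polyamine and methionine genes, 10 were higher and 3 lower (median 0.35, and 0.14 on the TPM scale). *ODC1*, ornithine decarboxylase and the first step of the pathway, was at 552, 531, 600.4, and 655 CPM in FBS and 401, 409, 478, and 471 CPM in CSS (log2 fold change 0.41, SE 0.049, adjusted P = 5.84e-08). *SRM*, spermidine synthase, and *ARG2*, which yields ornithine, were higher (0.45 and 0.68). The 3 lower genes were *SMOX* and *PAOX*, the polyamine oxidases, and *OAZ2*, an antizyme that marks ornithine decarboxylase for breakdown (-0.49, -0.55, and -0.31). Synthesis and breakdown genes did not part cleanly. The largest rise on the list, 0.85, was in the acetyltransferase of polyamine breakdown, a gene also on the androgen-responsive list. Another antizyme gene was higher too (0.19).

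In the secretory pathway several folding genes were higher, while the best-known stress chaperone did not pass the test. Of 28 chaperone and unfolded protein response genes, 14 were higher and 3 lower, with a median of 0.18 (-0.023 on the TPM scale). On the TPM scale the counts were 5 higher and 9 lower, while the list median lay 0.14 above that of all genes there. The higher count was 8 without the batch term and 6 in batch 2 alone. *HSPA5* (BiP), the chief chaperone of the endoplasmic reticulum, was at 669, 674, 683, and 715 CPM in FBS and 609, 650.1, 929, and 926 CPM in CSS and did not pass the test (log2 fold change -0.14, SE 0.076, adjusted P = 0.122). Without FBS batch 1 replicate 1 or FBS batch 1 replicate 2 its adjusted P was 0.0165 and 0.0164, with lower values in FBS, and without the first of these the list held 6 lower genes. *XBP1*, the transcription factor of the response, was at 0.16 with overlap (adjusted P = 0.0262) and at -0.04 on the TPM scale, and lost its call without CSS batch 1 replicate 1 (0.0626), FBS batch 1 replicate 2 (0.129), or CSS batch 2 replicate 1 (0.0685).

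*CREB3L4*, a membrane-bound factor of prostate and other secretory cells, was at 123, 129, 124, and 146 CPM in FBS and 71.8, 70.5, 73.7, and 75.1 CPM in CSS (log2 fold change 0.84, SE 0.055, adjusted P = 2.27e-13). The disulfide isomerase *PDIA5* and the secreted folding factor *MANF* were at 0.77 and 0.60. The sensors *ATF6* and *ERN1* (IRE1) were lower, at -0.36 and -0.51, as was the chaperone *HYOU1* at -0.22, a call lost without CSS batch 2 replicate 1 (adjusted P = 0.0524) or FBS batch 2 replicate 2 (0.0723).

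Of 50 genes of translocation and vesicle traffic, 20 were higher and 8 lower, with a median of 0.11 (-0.091 on the TPM scale). On the TPM scale the counts were 14 higher and 20 lower, while the list median lay 0.077 above that of all genes there. In batch 2 alone the counts were 5 and 6. The genes of regulated secretion were unequal. *RAB3B* and *RAB27A*, GTPases of secretory vesicles, were at 0.83 and 0.80, and *RAB27A* was at 17.6, 17.4, 15.5, and 14.1 CPM in FBS and 8.15, 8.95, 9.76, and 10.4 CPM in CSS (log2 fold change 0.80, SE 0.092, adjusted P = 2.62e-08). *SYTL2*, a partner of RAB27A at the membrane, was lower, at 3.91, 4.83, 3.80, and 3.02 CPM in FBS and 11.7, 11.7, 8.46, and 9.29 CPM in CSS (log2 fold change -1.40, SE 0.10, adjusted P = 1.67e-12). Neither overlapped.

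Of the translocon and coat genes, *SEC61G* was at 0.80 (overlapping groups, and 0.51 with the length correction) and the retrieval receptor *KDELR2* at 0.51. The coat subunits *SEC31A* and *COPA* were lower (-0.47 and -0.35, and -0.39 and -0.22 with the length correction). In glycosylation, 14 of 29 were higher and 6 lower (median 0.030, and -0.16 on the TPM scale, where 8 were higher and 11 lower). *ST6GALNAC1*, which makes the sialyl-Tn antigen of mucins, was at 11.4, 11.0, 14.8, and 15.7 CPM in FBS and 1.74, 1.66, 2.25, and 2.54 CPM in CSS (log2 fold change 2.69, SE 0.11, adjusted P = 1.26e-17). *UAP1*, which makes UDP-GlcNAc, was at 258, 288, 351, and 408 CPM in FBS and 133, 137, 164, and 182 CPM in CSS (log2 fold change 1.08, SE 0.083, adjusted P = 7.35e-12), and *GCNT1*, which branches O-glycans, was at 0.76. The sialyltransferases *ST3GAL1* and *ST6GAL1* and the O-glycan starter *GALNT3* were lower (-0.69, -0.69, and -0.45), so that sialyltransferases lay on either side of 0.

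In signalling, receptor tyrosine kinases and their ligands leaned lower in FBS, with 15 of 31 lower and 5 higher (median -0.30, and -0.33 on the TPM scale). *IGF1R*, the receptor of IGF-1, went the other way, at 30.9, 23.9, 29.7, and 23.4 CPM in FBS and 11.2, 12.2, 11.6, and 10.5 CPM in CSS (log2 fold change 1.25, SE 0.13, adjusted P = 5.4e-09). *ERBB2* (HER2) was lower, at 183, 162, 151, and 134 CPM in FBS and 276, 287, 249, and 219 CPM in CSS (log2 fold change -0.71, SE 0.099, adjusted P = 7.54e-07). Neither gene overlapped between the groups.

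Of the other receptors of the EGF family, *EGFR* was at 39.1, 30.3, 29.2, and 17.0 CPM in FBS and 33.2, 36.6, 27.7, and 24.4 CPM in CSS (log2 fold change -0.08, SE 0.15, adjusted P = 0.666) and *ERBB3* (HER3) was at 213, 183, 187, and 175 CPM in FBS and 196, 216, 239.7, and 221 CPM in CSS (log2 fold change -0.20, SE 0.099, adjusted P = 0.0934), and neither passed the test. *ERBB4* (HER4), named after its values were seen, passed the test downward (adjusted P = 0.00204) but was near absent, with 3, 1, 4, and 1 counts in FBS and 12, 11, 16, and 4 counts in CSS, and its adjusted P was 0.175 in batch 2 alone. Without FBS batch 1 replicate 1, *ERBB3* had an adjusted P of 0.0234. *INSR* was at -0.26 (adjusted P = 0.0794), while *FGFR3* was higher (1.24). *TGFA*, a ligand of EGFR, and the receptors *DDR1* and *EPHA2* were lower (-0.70, -0.67, and -0.79). *IGFBP3*, which binds IGFs outside the cell, was at 9.16, 8.77, 10.2, and 8.49 CPM in FBS and 14.8, 9.67, 37.8, and 38.9 CPM in CSS (log2 fold change -1.22, SE 0.22, adjusted P = 3.22e-05). Its CSS libraries split by batch, and batch 1 alone gave an adjusted P of 0.0614.

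Genes of ERK output and feedback differed in few cases. Of 19 tested, 1 was higher (5.26%) and 6 lower (31.6%), beside 26.0% and 26.8% of all genes. The median was -0.22, and 3 were lower without FBS batch 2 replicate 2. The phosphatase *DUSP4* was higher, at 36.8, 37.0, 26.8, and 24.6 CPM in FBS and 13.1, 15.4, 9.27, and 8.65 CPM in CSS (log2 fold change 1.44, SE 0.083, adjusted P = 1.6e-14). The phosphatase *DUSP6*, whose level follows ERK activity, was at 0.382, 0.419, 0.212, and 0.319 CPM in FBS and 0.702, 0.630, 0.675, and 0.862 CPM in CSS (log2 fold change -1.11, SE 0.20, adjusted P = 3.7e-05), and *ETV5* was at -1.16 and *DUSP5* at -0.37, all at low levels. Of the 29 immediate early genes, 5 were higher (17.2%) and 7 lower (24.1%), both below the 26.0% and 26.8% of all genes. Without FBS batch 2 replicate 1, 8 were higher. *FOS* was at 0.525, 0.621, 0.424, and 0.487 CPM in FBS and 0.665, 0.587, 0.531, and 0.692 CPM in CSS and *EGR1* at 1.48, 1.52, 1.37, and 1.28 CPM in FBS and 1.16, 1.37, 1.21, and 1.29 CPM in CSS, and neither passed (adjusted P = 0.68 and 0.766). *KLF4*, *IER5*, and *DUSP2* were higher (0.69, 0.41, and 0.43), and *BTG2*, *MCL1*, and *JUN* were lower (-0.72, -0.49, and -0.42).

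Genes of the insulin, PI3K, and FOXO axis were lower in FBS more often than genes at large: 15 of 27 were lower (55.6%, against 26.8% of all genes) and 4 higher, with a median of -0.28 (-0.23 in batch 1 and -0.34 in batch 2 alone, and -0.15 with the length correction). The summed level was 1758, 1718, 1490, and 1361 CPM in FBS and 2727, 2822, 2425, and 2416 CPM in CSS, without overlap. *SESN3*, a sestrin and FOXO target, was at 169, 166, 140.2, and 109.7 CPM in FBS and 457, 476, 393, and 374 CPM in CSS (log2 fold change -1.54, SE 0.066, adjusted P = 2.35e-17). *SESN1* was at 137, 161, 152, and 174 CPM in FBS and 355, 306, 321, and 383 CPM in CSS (log2 fold change -1.13, SE 0.11, adjusted P = 2.54e-09). *FOXO3* itself was at 182, 147, 133, and 102 CPM in FBS and 308, 349, 280.2, and 245 CPM in CSS (log2 fold change -1.08, SE 0.13, adjusted P = 6.29e-08). All 3 lay lower in every FBS library.

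*PIK3IP1*, an inhibitor of PI3K, and *GAB1*, an adaptor that recruits it, were lower as well (-1.10 and -1.24), as was the regulatory subunit *PIK3R3* (-0.81). *FOXO1* was at -0.08 (adjusted P = 0.573). The 4 genes higher in FBS were *IRS2* (0.36, adjusted P = 0.0271), *INPP4B*, *SGK1*, and *SGK3*. *INPP4B*, a lipid phosphatase, was at 13.7, 13.7, 13.1, and 10.8 CPM in FBS and 6.23, 6.12, 4.77, and 4.87 CPM in CSS (log2 fold change 1.23, SE 0.091, adjusted P = 3.92e-12), *SGK1*, a kinase related to AKT, was at 4.26, 3.89, 4.14, and 4.77 CPM in FBS and 1.87, 1.72, 1.85, and 1.80 CPM in CSS (log2 fold change 1.23, SE 0.12, adjusted P = 6.73e-10), and *SGK3* was at 0.32 with overlap.

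Of 42 WNT, Notch, and TGF-beta or BMP genes, 21 were lower and 8 higher (median -0.35), against 18 and 11 with the length correction and 16 and 8 without FBS batch 2 replicate 2. The lower genes included feedback inhibitors and transcription factors. *BAMBI*, a decoy receptor of the BMP and TGF-beta pathway, was at 19.0, 18.6, 16.5, and 18.8 CPM in FBS and 38.4, 36.3, 29.6, and 32.1 CPM in CSS (log2 fold change -0.90, SE 0.064, adjusted P = 1.58e-12), and *SMAD7* and *AXIN2*, inhibitors induced by TGF-beta and by WNT, were at -0.74 and -0.49. *TCF7L2*, *FZD3*, and *NOTCH3* were at -0.65, -0.45, and -0.79, with *FZD3* at -0.16 and no longer called with the length correction (adjusted P = 0.196). The Notch targets *HES1* and *HEY1* were higher (0.76 and 1.18), as were the receptors *FZD5* and *BMPR1B* (0.71 and 0.37).

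Of 20 SRF and YAP targets and cytoskeletal genes, 4 were higher and 4 lower (median -0.11), against 2 and 8 on the TPM scale. Each share was 20.0%, below the 26.0% and 26.8% of all genes. *TAGLN2* was at 243, 249.8, 183, and 211 CPM in FBS and 126, 123, 90.5, and 97.9 CPM in CSS (log2 fold change 1.02, SE 0.062, adjusted P = 5.43e-14), with smaller differences in *TPM1* and *AJUBA* (0.34 and 0.25). *AMOTL2* and *LATS2*, inhibitors of YAP that YAP itself induces, were lower (-0.79 and -0.62), and *ACTG1* was at -0.19.

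Because charcoal removes more than androgen, targets of other lipophilic ligands were read apart. Of 29 tested, 9 were higher and 7 lower (median -0.13), that is 31.0% and 24.1%, beside 26.0% and 26.8% of all genes, and 4 were higher and 12 lower on the TPM scale. Beside *ABCA1* and *ABCG1*, the glucocorticoid receptor *NR3C1* was lower, at 1.84, 2.02, 1.78, and 1.56 CPM in FBS and 5.47, 5.57, 3.20, and 3.32 CPM in CSS (log2 fold change -1.25, SE 0.099, adjusted P = 1.6e-11), and so was the progesterone receptor *PGR* (-1.67, from 1.49 ± 0.146 CPM in CSS to 0.466 ± 0.0446 CPM in FBS (SD, n = 4)). *RARB*, which retinoic acid induces, and *DHRS3*, which handles retinal, were higher (0.72 and 0.52). *GREB1*, known as an estrogen and androgen target, was at 0.68 with overlap.

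The genes with the largest differences, among DEGs whose average log2 CPM reached 1 and whose direction held in each batch and in all 4 same-numbered pairs, came partly from these groups. Of 405 such genes higher in FBS, 81 were members of the cell-cycle lists. The 12 largest rises were in *CHRNA2*, *MAK*, *ZNF812*, *TM4SF1*, *ST6GALNAC1*, *GINS2*, *MND1*, *DDIAS*, *CNGB3*, *CENPU*, *RAD51AP1*, and *FAM111B*. *CHRNA2*, a subunit of the nicotinic acetylcholine receptor, was at 19.0, 16.5, 13.6, and 13.1 CPM in FBS and 0.738, 1.06, 0.586, and 0.449 CPM in CSS (log2 fold change 4.50, SE 0.15, adjusted P = 9.15e-20). *MAK*, a kinase first described in male germ cells, was at 10.2, 10.3, 7.55, and 6.96 CPM in FBS and 1.12, 1.20, 0.708, and 0.972 CPM in CSS (log2 fold change 3.13, SE 0.12, adjusted P = 1.53e-18). *TM4SF1*, a surface protein of the L6 family, was at 20.5, 27.3, 40.1, and 47.3 CPM in FBS and 2.83, 4.23, 5.36, and 6.13 CPM in CSS (log2 fold change 2.85, SE 0.17, adjusted P = 3.1e-14). The groups lay far apart for these 3 genes.

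The remaining rises from 3.09 (*ZNF812*) to 1.99 (*FAM111B*) included *GINS2*, *MND1* (2.05), which acts in meiotic strand exchange, *RAD51AP1* (1.99), and *CENPU* (2.00), a centromere protein. *DDIAS* and *CNGB3*, an ion channel subunit, were at 2.05 and 2.02.

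The 12 largest falls, among 244 lower genes, were in *VWA2*, *PLD1*, *ABCA1*, *SI*, *MAN1A1*, *MID1*, *PCED1B*, *SLC30A10*, *CXorf36*, *OPRK1*, *GRIK1*, and *AMIGO2*. *VWA2*, a secreted protein with von Willebrand domains, was at 0.990, 0.838, 1.32, and 1.50 CPM in FBS and 8.21, 8.94, 11.4, and 10.9 CPM in CSS (log2 fold change -3.10, SE 0.079, adjusted P = 1.39e-21). *MAN1A1*, a Golgi mannosidase that trims N-glycans, was at 2.73, 2.72, 2.98, and 1.93 CPM in FBS and 15.8, 16.0, 18.8, and 18.0 CPM in CSS (log2 fold change -2.71, SE 0.098, adjusted P = 7.02e-19). *OPRK1*, the kappa opioid receptor, was at 100.9, 86.1, 28.7, and 24.8 CPM in FBS and 330.5, 307, 156, and 149 CPM in CSS (log2 fold change -2.09, SE 0.13, adjusted P = 1.44e-13). The groups did not overlap, and for *OPRK1* batch 2 was the lower batch in both groups.

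*PLD1*, phospholipase D1, and *SI*, the brush-border enzyme sucrase-isomaltase, were at -2.83 and -2.72. *MID1* was at -2.33, *PCED1B* at -2.27, the manganese exporter *SLC30A10* at -2.25, *CXorf36* at -2.24, the glutamate receptor subunit *GRIK1* at -2.08, and *AMIGO2* at -2.08. Most of these genes were at low levels, with *PLD1* from 5.61 ± 1.20 CPM in CSS to 0.784 ± 0.294 CPM in FBS (SD, n = 4).

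The CSS group was also the control of the ligand groups, so that the values at 4 hours of EGF or NRG-1 are set beside it without a test. The replication list had a median log2 ratio to CSS, from group mean CPM plus 0.1, of 1.38 in FBS, -0.10 with EGF, and -0.079 with NRG-1, and the mitosis list had 1.33, -0.33, and -0.27. None of the 92 cell-cycle genes was above a ratio of 2 with either ligand at 4 hours, where 41 and 40 were in FBS. The exposures differ in length, since FBS cells were kept in full serum and ligand cells had 4 hours of ligand in CSS. No later time was sampled, so a later rise with the ligands would not be seen. *CDC6* averaged 118 ± 12.7 CPM in FBS, 33.0 ± 2.42 in CSS, 33.1 ± 1.55 with EGF, and 30.6 ± 1.29 with NRG-1 (SD, n = 4), close to CSS with both ligands. *ERBB2* averaged 157 ± 20.4 CPM in FBS, 258 ± 30.1 in CSS, 420.5 ± 45.9 with EGF, and 393 ± 79.9 with NRG-1 (SD, n = 4), on the other side of CSS from FBS. *SESN1* averaged 156 ± 15.4 CPM in FBS, 341 ± 34.5 in CSS, 77.0 ± 9.73 with EGF, and 97.7 ± 16.1 with NRG-1 (SD, n = 4), below FBS with both ligands. *DUSP6* averaged 0.333 ± 0.0906 CPM in FBS, 0.717 ± 0.101 in CSS, 27.3 ± 4.68 with EGF, and 14.5 ± 0.428 with NRG-1 (SD, n = 4). *IGF1R* averaged 27.0 ± 3.89 CPM in FBS, 11.4 ± 0.706 in CSS, 12.0 ± 1.23 with EGF, and 12.1 ± 1.92 with NRG-1 (SD, n = 4), near CSS with both.

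**Figure D5:**
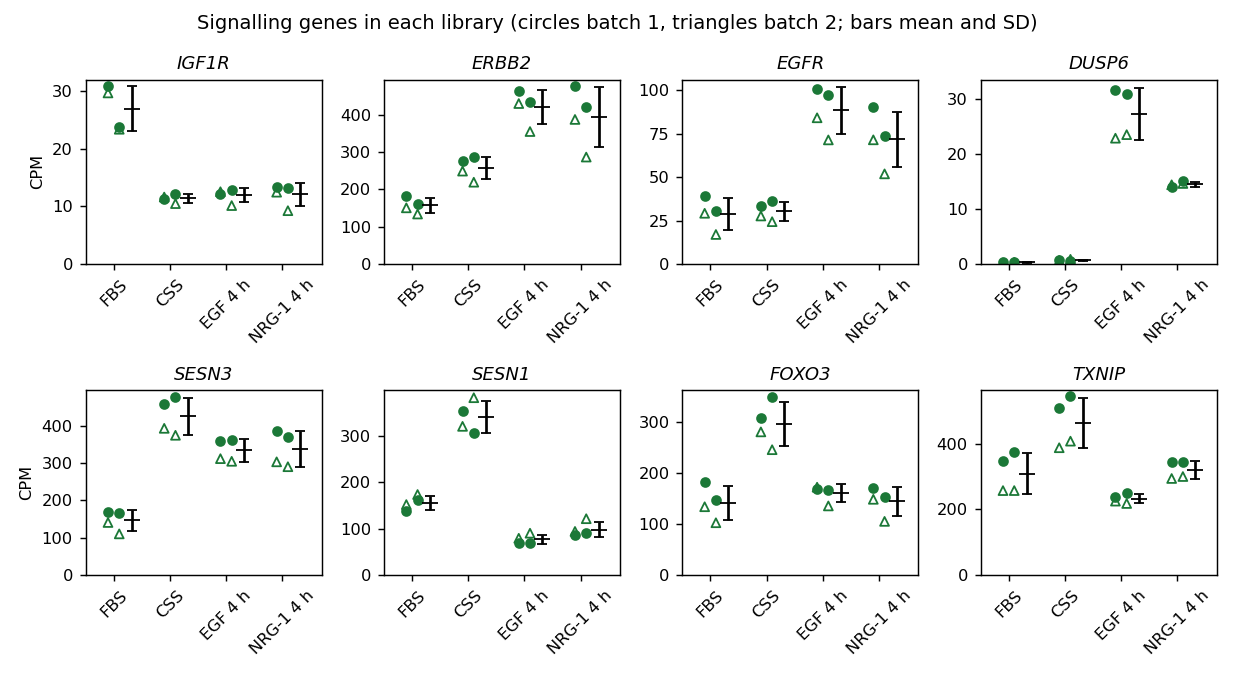
CPM (y axes, each from 0) of 8 signalling genes in the FBS and CSS libraries and after 4 hours of EGF or NRG-1 in CSS, with batch 1 as filled circles, batch 2 as open triangles, replicate 1 left of replicate 2, and the mean and SD of 4 libraries as bars. *IGF1R* is high in FBS alone among these groups (23.4 to 30.9 CPM), *DUSP6* is below 1 CPM in FBS and CSS, and *SESN3*, *SESN1*, and *FOXO3* are highest in CSS.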

How the data were processed

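Polyadenylated RNA of LNCaP cells was sequenced in 32 strand-specific libraries. Per the submitters' processing notes, the authors used Trimmomatic (version 0.36), RSEM, and STAR (version 2.7.0f) with hg19, and the annotation release is not given in the sources used here. The authors deposited RSEM expected counts per gene symbol, not scaled to library size, and TPM values, which are scaled by transcript length and library total. No value column was left unmapped to a sample.

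After rounding of the expected counts, a gene was tested where 3 or more libraries held 5 counts or more. All groups with batch as a term were fitted with the quasi-likelihood test of edgeR (version 4.0.16, R version 4.3.3, TMM scaling), and the Benjamini-Hochberg adjustment of *P* ran over 16995 genes. A gene was called at an adjusted P below 0.05 and a DEG with a log2 fold change beyond 1 as well. Alternatives were the Wald test of DESeq2 (version 1.42.0), its size factors, other filters, fits by batch, limma (version 3.58.1) on log2(TPM + 1) and log2(TPM + 0.1), and each library left out. Offsets for transcript length were added after the data had been seen. On simulated counts, 100 of 100 genes changed by 1.5 and 100 of 100 changed by 2.5 (log2) were recovered as DEGs, with 2 false calls. The changed genes all had a mean CPM of at least 1, and no batch or length difference was simulated. The simulation therefore does not bear on calls below the fold limit.

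The comparison, the gene lists, and the motifs were chosen with earlier results of these data known. Genes were named by these rules: the 12 largest rises and falls among DEGs with average log2 CPM of at least 1, one direction in both batches and all pairs, and no place on the androgen list; up to 3 called members of each list and direction with the lowest adjusted P at that level; a set of well-known genes; and members needed to show how a list divides. Some genes that these rules name are not reported here. Same-numbered libraries share a batch label, and their deviations from group means correlated at 0.356, 0.525, 0.532, and 0.764. Those values include the batch difference, which libraries of a batch share whatever their number. With batch means removed as well, the correlations were -0.431 in batch 1 and 0.623 in batch 2. Pairing by number was therefore assumed, not shown, in the rule for the largest differences and in the replicate block. No 2 libraries of a group were alike within sampling noise. Promoter sequences are RefSeq's (GRCh38.p14), matched by symbol.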

Additional observations from a re-analysis of the deposited data

Results flagged for a closer look

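Among 494 sets of 4 libraries (each named gene in each group), 8 held 1 library far from the other 3 by Dixon's test at 95%, where chance gives about 1 in 20, or 25. In CSS, *GINS2* was at 16.3 CPM in batch 2 replicate 1 (the other libraries at 19.4 to 19.9 CPM), and *SESN2* was at 64.4 CPM in the same library (57.5 to 58.0 CPM). *AGPAT2* was at 23.3 CPM in CSS batch 2 replicate 2 (25.9 to 26.3 CPM), and *TFAM* was at 164 CPM there (136 to 140 CPM). *SLC2A3* was at 0.0143 CPM in CSS batch 1 replicate 2, a single count, with the others at 0. In FBS, *MYLIP* was at 14.4 CPM in batch 2 replicate 2 (17.8 to 18.0 CPM), *BAMBI* was at 16.5 CPM in batch 2 replicate 1 (18.6 to 19.0 CPM), and *NOP56* was at 306 CPM in the same library (314 to 315 CPM). *MYLIP* was not called between FBS and CSS, and the calls of the others kept their direction in every fit that left out 1 library.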

How the results depend on the processing

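The 835 higher and 645 lower DEGs became 529 and 370 with at least 10 counts in every library, 258 and 192 with limma on log2(TPM + 1), 260 and 192 without its filter, 352 higher on log2(TPM + 0.1), and 4412 and 4547 without the fold limit. The 4412 higher and 4547 lower genes became 2140 and 2374 in batch 2 alone, and the higher count became 2328, 2310, and 2703 in the 3 TPM fits. The cause was not tested. Leaving out 1 library gave 777 to 882 higher and 589 to 659 lower DEGs, and 3881 to 4473 and 4027 to 4643 genes at an adjusted P below 0.05. With the replicate block, which pairs libraries of the same batch and number, 843 higher and 659 lower DEGs and 5090 and 5190 genes were called, and of 247 named genes 4 gained and none lost the call. Of 231 named genes called, 181 were called in the same direction in every alternative. *DPYSL3* turned to -0.01, -0.03, and -0.01 in the 3 TPM fits, *XBP1* to -0.04 in each, and *NR1H3* to -0.0 in each. Batch 2 alone lost 36 named calls and the fit without a batch term lost 20. Depth limited genes of few counts, such as *SLC2A3* and *CXCL8*.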

Other observations

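Iron, lysosome, and ribosome genes were read apart from the programs above. *TFRC*, the transferrin receptor, was at 488, 461, 581, and 521 CPM in FBS and 310.2, 268, 342, and 372 CPM in CSS (log2 fold change 0.67, SE 0.075, adjusted P = 1.75e-08, from edgeR), and the ferritin subunits *FTH1* and *FTL* were lower in FBS (-0.41 and -0.37), without overlap for any of the 3 genes. Of 16 metal genes, 7 were higher and 7 lower (43.8% each, beside 26.0% and 26.8% of all genes), against 1 and 8 on the TPM scale. The higher ones included the zinc carriers *SLC39A6* and *SLC30A5* (0.23 and 0.19), and the lower ones *SLC30A4* (-0.77) and *SLC30A1* (-0.44). Of 22 lysosome and autophagy genes, 10 were lower and 2 higher (median -0.13), with the autophagy genes *GABARAPL1* and *SQSTM1* (p62) at -0.78 and -0.67, the protease *CTSB* at -0.43, and *BNIP3* higher at 0.40. Of 28 genes of ribosome biogenesis, 15 were higher (median 0.22, and 0.019 on the TPM scale, where 7 were), led by *LYAR* (0.85), *NOP56* (0.63), and *NOP16* (0.55). *MYC*, which drives that program, was at 281, 267, 266, and 223 CPM in FBS and 254, 264, 256, and 256 CPM in CSS and did not pass (log2 fold change 0.01, SE 0.052, adjusted P = 0.884).

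Interferon and NF-kappaB genes went both ways, with 12 of 30 higher (40.0%) and 10 lower (33.3%), beside 26.0% and 26.8% of all genes. The median was 0.032, -0.15 on the TPM scale, and -0.16 with the length correction. The counts were 5 higher and 12 lower on the TPM scale and 10 and 12 with the length correction. *OAS3*, *B2M*, and *NFKBIA* were higher (1.02, 0.64, and 0.35), and *IRF1* and *HLA-B* were lower (-0.54 and -0.34), where *HLA-B* may share reads with near-identical copies. *CXCL8*, interleukin 8, had 13, 28, 30, and 14 counts in FBS and 2, 1, 2, and 2 counts in CSS. Of 16 neuronal and neuroendocrine genes tested, 6 were higher (37.5%) and 7 lower (43.8%), beside 26.0% and 26.8% of all genes. The higher genes included *VGF* (1.43) and *MAP2* (0.35). The lower genes included *NEFL* and *ENO2* (-0.68 and -0.47) and *DDC*, aromatic amino acid decarboxylase, at 135, 147, 79.0, and 88.1 CPM in FBS and 309.6, 291, 194, and 208 CPM in CSS (log2 fold change -1.18, SE 0.075, adjusted P = 1.56e-13). *DPYSL3* was at 0.20 with overlap, and its call was lost in 5 of the 8 leave-one-out fits, with an adjusted P of 0.181 without FBS batch 1 replicate 1 and a value of -0.01 on the TPM scale.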
